A study of Mus musculus with 24 samples.

Results

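The late phase of differentiation was examined in primary myoblasts (PMs) in which Tead1 and Tead4 had been silenced together, by comparing the siTead1/4 PMs at day 6 with the same kind of cells at day 3. The comparison used 4 of the 24 libraries of the series, the 2 biological replicates of siTead1/4 PMs at each of these days. They were chosen by their labels, with earlier results of these data known. The comparison covered every gene with enough reads to be tested. Total RNA was sequenced after selection of polyadenylated transcripts, from PMs and from the C2C12 myoblast line, at days 0, 3 and 6.

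PMs were muscle precursor cells isolated from young wild type mice of the C57/B6 strain, and C2C12 is a mouse myoblast line whose labels give the C3H strain. Silencing was transient. Cells received a pool of siRNAs against Tead1 and a pool against Tead4, or a control siRNA (siControl, whose labels name luciferase as the target), all groups were transfected, and day 0 was 24 hours later, before the switch to medium with 2% horse serum. The groups used were siTead1/4 PMs, siControl PMs and siTead1/4 C2C12 cells at day 3 and day 6, and siControl PMs at day 0, with 2 libraries each. Differentiating cultures of this kind hold fused and unfused cells together, and fewer cells of a kind and less RNA per cell cannot be told apart in any value below.

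Tead proteins are transcription factors that share a DNA-binding domain recognising the MCAT element, a motif found at many muscle promoters, and that depend on coactivators such as Yap, Taz and the Vgll proteins. Myoblasts that receive little serum leave the cell cycle, switch on myogenin and the sarcomere genes, and fuse into myotubes. Over the following days the myotubes change their set of myosin isoforms, while matrix proteins and secreted factors build up in the culture.

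The 4 libraries held 35069611 to 51110723 counts assigned to genes, against 25453830 to 52784510 over all 24. Replicates of the 6 PM groups correlated with Pearson's r of 0.986 to 0.993 across genes (log2 scale), and none were as alike as counting noise alone would make them. The labelled tissue was checked by 12 skeletal muscle markers, whose summed level was 49120.0 and 43670.0 CPM (read counts scaled to library size) in the silenced PMs at day 3 and 42950.0 and 44790.0 CPM at day 6. None of the 12 was called in the late comparison.

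Tead1 and Tead4, the targeted genes, lay below both siControl libraries in both silenced libraries at day 3 and at day 6. Tead4 (chromosome 6, 128174306 to 128250841, minus strand, mm9) measured 29.4 and 33.5 CPM in the silenced PMs at day 3 and 38.8 and 56.7 CPM at day 6, against 186 and 189 CPM and 155 and 166 CPM in siControl PMs. Both silenced libraries were far below both control libraries at each day, and the 2 silenced libraries of day 6 were above those of day 3. The reduction was -2.58 ± 0.17 (log2 fold change ± SE) at day 3 (edgeR quasi-likelihood test, adjusted p = 9.25e-05) and -1.75 ± 0.16 at day 6 (edgeR, adjusted p = 0.00199). The late change itself, 0.60 ± 0.16, was not called (edgeR, adjusted p = 0.0556), nor was its difference from the late change of siControl PMs, 0.83 ± 0.23 (edgeR, adjusted p = 0.628).

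Tead1 (chromosome 7, 119822832 to 120050319, plus strand) was at 95.6 and 74.3 CPM at day 3 and 135 and 68.3 CPM at day 6 in the silenced PMs, and at 278 and 267 CPM and 269 and 167 CPM in siControl PMs. Its reduction passed the test at day 3 (-1.68 ± 0.31, edgeR adjusted p = 0.0107) but not at day 6 (-1.10 ± 0.31, edgeR adjusted p = 0.143), when the replicates of both groups lay apart. The change between the days, 0.26 ± 0.31, was within the spread of the replicates (edgeR, adjusted p = 0.671). Tead3, a family member that was not targeted, was at 58.1 and 89.4 CPM and then 101 and 106 CPM, and Tead2 at 51.9 and 68.9 CPM and then 49.6 and 56.7 CPM. Neither was called late, and neither were the coactivator genes Yap1 (-0.02 ± 0.11) and Wwtr1, which encodes Taz (0.41 ± 0.16). None of the 9 tested members of the list of Tead genes and cofactors was called (edgeR, and none with DESeq2), with 3 at an unadjusted p under 0.05.

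**Figure D1:**
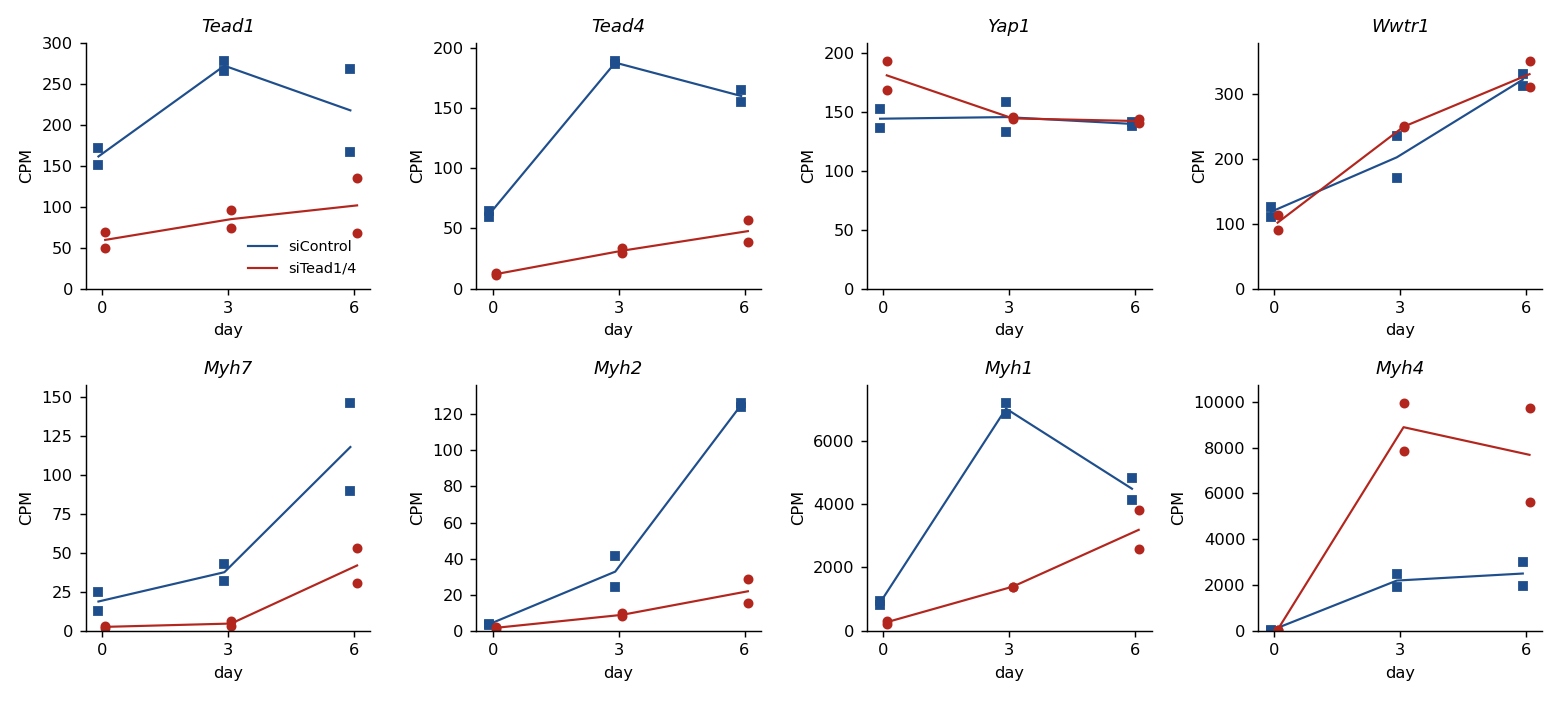
Levels of Tead1, Tead4, the coactivator genes Yap1 and Wwtr1, and 4 adult myosin heavy chain genes in PMs at days 0, 3 and 6 (CPM, linear axes from 0). Each point is 1 library and lines join the means of the 2 libraries of siControl (blue squares) and siTead1/4 (red circles). Tead4 stays low in the silenced PMs, Myh7 and Myh2 rise late in both arms from different levels, and Myh1 moves in opposite directions between days 3 and 6.

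Between day 3 and day 6 the silenced PMs raised 297 genes and lowered 182 of 16144 tested, that is 1.84% called higher and 1.13% called lower (edgeR, adjusted p under 0.05 and more than a 2-fold change). The genes that rose included sarcomere genes of slow muscle (Myl2, Myh7), ion channel genes (Kcnc4, Kcnj15, Scn4b), and genes for matrix and secreted proteins (Col11a1, Dcn, Ltbp2, Smoc2). Among those that fell were Mstn, which encodes the growth inhibitor myostatin, the imprinted gene Peg10, and genes of cholesterol synthesis. The median called rise was 1.59 and the median called fall -1.35 on the log2 scale, while the median over all tested genes was -0.00796. Of the called genes, 281 of the rises and 173 of the falls were protein-coding, and 11 and 3 were lincRNAs.

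These counts rested heavily on single libraries. Without replicate 1 of day 3 the test called 52 rises and 46 falls, and without replicate 2 of day 6 it called 121 and 61. A total of 37 rises and 20 falls were called in all 11 alternative settings. Of the 81 called genes that are named by rule in the text, all kept their direction in every alternative, 53 lost their call without replicate 1 of day 3, and 17 were called throughout. Members of a list beyond its 4 largest called changes, and marker genes, are named after their values were seen. The 17 called throughout were Anxa8, Myl2, Smoc2, Thbs4, Ereg, Fhl1, Ier3, Hbegf, Ctsk and Igfbp7 among the rises and Peg10, Sh2d3c, Sema6b, Mstn, Cited1, Tmem233 and Tcf7l1 among the falls.

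The 12 largest rises were led by Kcnc4 (chromosome 3, 107241221 to 107261816, minus strand), a voltage-gated potassium channel gene, with 0.0823 and 0.427 CPM at day 3 and 4.26 and 14.5 CPM at day 6. Its change was 5.23 ± 1.06 (edgeR, adjusted p = 0.0193), with both day 6 libraries well above both day 3 libraries but unequal to each other. Anxa8 (chromosome 14, 34899167 to 34913757, plus strand), which encodes an annexin, a calcium-dependent membrane-binding protein, measured 1.56 and 2.44 CPM and then 25.7 and 67.8 CPM, a rise of 4.55 ± 0.55 (edgeR, adjusted p = 0.00273). The inward rectifier potassium channel gene Kcnj15 went from 0.865 and 0.38 CPM to 7.89 and 8.22 CPM (3.67 ± 0.62). Scn4b, the gene of a sodium channel beta subunit, went from 0.865 and 0.83 CPM to 11.7 and 6.47 CPM (3.42 ± 0.50). All 3 channel genes were under 1 CPM in both day 3 libraries and several-fold higher in both day 6 libraries. A call and day 6 libraries beyond both day 3 libraries were conditions for naming the 12 rises and the 12 falls. The separation of the days is therefore no further evidence for them. Fam167a, a gene of little known function, rose by 2.87 ± 0.51, from 4.22 and 7.31 CPM to 27.5 and 56.8 CPM.

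The largest falls were led by Peg10 (chromosome 6, 4697306 to 4710517, plus strand), a retrotransposon-derived gene expressed from the paternal allele. Its level was 574 and 285 CPM at day 3 and 82.7 and 52.8 CPM at day 6, a change of -2.66 ± 0.39 (edgeR, adjusted p = 0.00529). The day 3 libraries lay apart, but both were above both day 6 libraries, as the rule for naming required. Sh2d3c, which encodes an SH2-domain adaptor of integrin and receptor signalling, fell from 5.76 and 5.38 CPM to 1.02 and 0.772 CPM, a change of -2.63 ± 0.22 with close replicates (edgeR, adjusted p = 0.000636). Cited1, the gene of a transcriptional coactivator, fell from 9.53 and 11.3 CPM to 2.23 and 3.03 CPM (-1.99 ± 0.20). Fmo1, a flavin monooxygenase gene, fell from 46.9 and 45.8 CPM to 14 and 13.3 CPM (-1.77 ± 0.17), and here too the replicates of a day nearly coincided.

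A further 6 genes of this group fell by 1.74 to 2.12 on the log2 scale. They were Galnt6, an enzyme that starts mucin-type glycosylation, Sema6b, a transmembrane semaphorin, Rxfp1, the relaxin receptor, Fam65b, a gene that acts in myoblast fusion, Tmem233, a transmembrane protein gene, and Frmd5, a FERM-domain protein gene. Their levels at day 3 spanned 6.59 and 3.96 CPM for Frmd5 to 91.2 and 48.9 CPM for Fam65b, which fell to 21.5 and 12.5 CPM at day 6. Galnt6, Sh2d3c, Fam65b and Frmd5 overlap clone or predicted genes of the annotation, from which unstranded reads cannot be told apart. Mstn, also in the group, is described with its pathway.

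**Figure D2:**
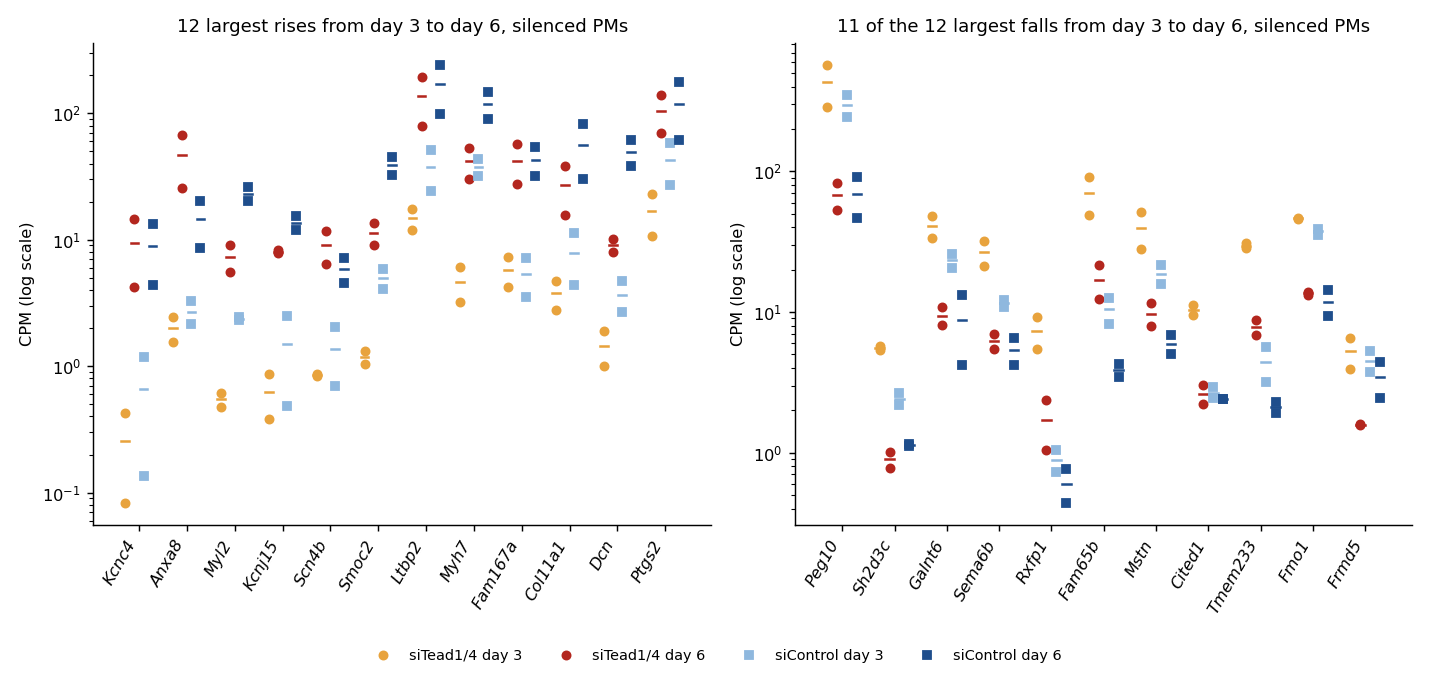
Levels of the 12 largest rises and 11 of the 12 largest falls between day 3 and day 6 in the silenced PMs (CPM, log axis), with siControl PMs of the same days beside them. Points are single libraries, short bars are means of 2 libraries. In every gene shown both red points lie beyond both orange points, which was a condition for naming it, while the siControl pairs (blue) move the same way for nearly all of them.

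RefSeq promoters (GRCm38.p6, 250 bases before to 50 bases after a transcription start) were matched by symbol to 207 of the 297 genes that rose and 137 of the 182 that fell. The MCAT core, spelled CATTCC on either strand (GGAATG when read on the other), was present in 16.5% of 279 promoters of rising genes, 14.0% of 172 of falling genes and 12.6% of 15041 promoters of all tested genes. An E-box of the letters CAGCTG, the kind of site bound by myogenic basic helix-loop-helix factors and the same on both strands, was present in 15.8%, 19.8% and 16.2%. The shares thus lay near those of all promoters. Neither string contains the other. Of the 24 genes with the largest rises and falls, 17 had a promoter in the table and 4 held the MCAT core, and those 4 are printed 5′ to 3′ on the gene's strand with the core in capitals. Myh7 and Galnt6 had 2 promoters each, of which only 1, the one printed, held the core. Scn4b is at chr9:45138374-45138673 on the plus strand, with the core starting 1 base before the start site. Myh7 is at chr14:54994577-54994876 on the minus strand, with the core in reverse orientation 201 bases before. Galnt6 is at chr15:100720428-100720727 on the minus strand, in reverse orientation 158 bases before, and Frmd5 at chr2:121807008-121807307 on the minus strand, 102 bases before.
Scn4b: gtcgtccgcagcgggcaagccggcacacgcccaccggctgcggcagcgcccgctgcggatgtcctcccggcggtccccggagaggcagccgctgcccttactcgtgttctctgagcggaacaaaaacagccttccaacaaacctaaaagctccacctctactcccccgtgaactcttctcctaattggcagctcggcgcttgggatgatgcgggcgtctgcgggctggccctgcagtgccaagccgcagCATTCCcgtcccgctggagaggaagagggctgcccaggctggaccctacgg
Myh7: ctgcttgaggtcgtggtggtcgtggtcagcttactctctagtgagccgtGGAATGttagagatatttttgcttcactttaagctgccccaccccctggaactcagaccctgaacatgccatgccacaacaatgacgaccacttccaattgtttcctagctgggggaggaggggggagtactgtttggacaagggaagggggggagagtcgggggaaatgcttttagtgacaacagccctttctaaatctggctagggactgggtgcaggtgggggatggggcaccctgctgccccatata
Galnt6: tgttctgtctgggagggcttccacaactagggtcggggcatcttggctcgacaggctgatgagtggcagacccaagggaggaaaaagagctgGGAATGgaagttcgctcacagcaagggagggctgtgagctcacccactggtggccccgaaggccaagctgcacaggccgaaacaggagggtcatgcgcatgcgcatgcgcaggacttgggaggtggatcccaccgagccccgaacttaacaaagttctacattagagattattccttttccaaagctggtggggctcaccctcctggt
Frmd5: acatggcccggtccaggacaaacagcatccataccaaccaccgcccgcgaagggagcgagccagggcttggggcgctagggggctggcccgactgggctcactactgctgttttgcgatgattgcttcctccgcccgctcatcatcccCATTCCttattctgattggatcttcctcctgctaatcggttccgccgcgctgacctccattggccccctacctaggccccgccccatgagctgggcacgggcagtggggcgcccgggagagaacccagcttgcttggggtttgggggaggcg

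Contractile genes were among the rises. The counts of this and the following lists stand against 1.84% called higher and 1.13% called lower over all tested genes. Of 57 tested contractile and Z-disc genes, 7 rose and none fell, with a list median of 0.13, and in siControl PMs 6 rose and none fell. Myl2 (chromosome 5, 122550960 to 122563481, plus strand), the regulatory light chain of slow and cardiac muscle, was at 0.473 and 0.617 CPM at day 3 and 5.55 and 9.02 CPM at day 6, a rise of 3.74 ± 0.37 (edgeR, adjusted p = 0.00119). Myh7 (chromosome 14, 55589525 to 55613471, minus strand), the slow myosin heavy chain with 1 of its 2 promoters printed above, went from 3.19 and 6.1 CPM to 30.5 and 53.4 CPM, a rise of 3.18 ± 0.45 (edgeR, adjusted p = 0.00435). In both genes the 2 days were separated by several-fold gaps that exceeded the difference between replicates. Days that did not overlap were a condition for naming both among the largest rises.

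Fhl1, a LIM-domain protein of the sarcomere and of hypertrophy signalling, rose from 66 and 64.6 CPM to 241 and 337 CPM (2.15 ± 0.22, edgeR adjusted p = 0.00119). Csrp3, a Z-disc LIM protein, rose by 1.45 ± 0.30, and Ankrd23, a stretch-responsive ankyrin repeat gene of the same family as Ankrd1 and Ankrd2, by 1.19 ± 0.18. Mb, which encodes the oxygen carrier myoglobin of oxidative fibres, tripled its level from 959.8 and 1043 CPM to 2959.5 and 3329 CPM (1.65 ± 0.18, edgeR adjusted p = 0.00151). Without replicate 1 of day 3, 2 contractile genes were called higher, and without replicate 2 of day 6, 4 were. Myl2 overlaps Ccdc63, and Mb overlaps Apol6, on the opposite strand, and the libraries did not keep strand.

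The adult fast myosins did not share 1 pattern. Myh1, the gene of the IIx heavy chain, was at 1389.6 and 1396 CPM at day 3 and 2573 and 3799.7 CPM at day 6 (1.19 ± 0.20, edgeR adjusted p = 0.00907), while siControl PMs went from 7185 and 6838 CPM to 4136 and 4829 CPM. All 4 silenced values were below all 4 control values, and the means of the arms were closer at day 6. The difference of the 2 late changes was 1.84 ± 0.28 and did not pass the correction over all genes (edgeR, adjusted p = 0.18), although both replicates moved up in one arm and down in the other. Myh2, the IIa gene, rose from 8.03 and 9.63 CPM to 15.2 and 28.6 CPM (1.31 ± 0.32), and siControl PMs reached 124 and 126 CPM at day 6. Myh4, the IIb gene, measured 9937 and 7837 CPM and then 9742 and 5618 CPM and was not called (-0.21 ± 0.27, edgeR adjusted p = 0.703).

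Per kilobase of transcript, the day 6 order of these levels in the silenced PMs was Myh4 at 1272, Myh1 at 501, Myh7 at 6.58 and Myh2 at 3.6 CPM per kb. In siControl PMs of day 6 the order began with Myh1 at 705 and Myh4 at 414, followed by Myh2 at 20.6 and Myh7 at 18.5 CPM per kb. Myh7 and Myh2, the lowest pair, overlapped in level between libraries of the control arm. The myosin heavy chain genes are close paralogs, so reads shared between them make these levels uncertain.

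The myogenic regulators gave a single call, a fall, which is 4.55% of the list against 1.13% called lower over all tested genes. Of 22 tested myogenic factor genes none rose and 1 fell: Myf5, the early determination factor, which went from 31.8 and 40.8 CPM to 16.3 and 15.8 CPM (-1.17 ± 0.25, edgeR adjusted p = 0.0226). Myog, the gene of myogenin, was at 647 and 802 CPM and then 874 and 1018 CPM and was not called (0.38 ± 0.17). Cav3, the muscle caveolin gene, was at 143 and 239.8 CPM and then 246 and 453 CPM, with 0.87 ± 0.31 and no call (edgeR, adjusted p = 0.121). The call of Myf5 was lost when any of the 4 libraries was left out. Ankrd2 was under 1 CPM in the silenced PMs at both days, 0.556 and 0.688 CPM and 0.412 and 0.979 CPM, against 5.41 and 6.99 CPM in siControl PMs at day 6.

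Of 19 fusion and membrane repair genes, 2 rose, which is 10.5% of the list against 1.84% called higher over all tested genes. Jam2, an adhesion molecule gene, went from 54.6 and 73.7 CPM to 107 and 152 CPM (1.02 ± 0.21), and Adamtsl2, the gene of a secreted matrix-associated protein, from 22 and 42.2 CPM to 66.2 and 90.5 CPM (1.29 ± 0.32). In siControl PMs the late changes of this pair were -0.15 ± 0.21 and -0.05 ± 0.31, neither called, and the differences between the arms, 1.16 ± 0.30 and 1.34 ± 0.44, were not called either (edgeR, adjusted p = 0.609 and 0.84). Neither rise was called without replicate 1 of day 3 or without replicate 2 of day 6. The excitation-contraction list gave 1 rise in 32, Mrvi1, a regulator of calcium release (1.12 ± 0.29), whose call was lost when any of the 4 libraries was left out. That is 3.12% of the list called, against 1.84% called higher and 1.13% called lower over all tested genes. Neuromuscular junction genes gave no call in 20 (edgeR, and none with DESeq2), with 3 at an unadjusted p under 0.05, and the most abundant, Chrna1 and Prkar1a, changed by 0.23 ± 0.21 and 0.04 ± 0.17.

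Extracellular matrix genes were the largest group of rises among the lists. Of 59 tested members 16 rose and 1 fell, with a list median of 0.52, and in siControl PMs 18 rose and 1 fell, with a median of 0.79. Col11a1, a fibrillar collagen chain gene, was at 4.73 and 2.8 CPM at day 3 and 38 and 15.8 CPM at day 6 (2.83 ± 0.63, edgeR adjusted p = 0.0288). Dcn, which encodes the proteoglycan decorin, went from 1.01 and 1.9 CPM to 7.97 and 10.2 CPM (2.65 ± 0.43), and siControl PMs reached 61.2 and 38.5 CPM. Thbs4, a thrombospondin gene, went from 2.86 and 6.59 CPM to 29.8 and 22.6 CPM (2.48 ± 0.32). In Dcn and Thbs4 both control libraries of day 6 were above both silenced libraries, and in Col11a1 they overlapped.

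Mfap5, a microfibril gene, rose by 2.43 ± 0.47. The collagen and elastin cross-linking enzymes Lox and Loxl2 rose by 2.34 ± 0.21 and 2.12 ± 0.18, and Lox was the more abundant of these changes in reads, from 139.9 and 219.7 CPM to 915 and 905 CPM. Fn1, the fibronectin gene, more than doubled from 1356 and 1545 CPM to 3472 and 2838 CPM (1.12 ± 0.15, edgeR adjusted p = 0.00329). The other rises were Fbln2, Fbln5, Postn, Spp1, Bgn, Thbs2, Fbn1, Col8a1 and Col16a1, at 1.10 to 1.96, and the single fall was Col6a2 (-1.14 ± 0.28). Outside that list, Smoc2, the gene of a secreted calcium-binding matrix protein, rose from 1.32 and 1.04 CPM to 9.15 and 13.5 CPM (3.25 ± 0.28, edgeR adjusted p = 0.000636). Without replicate 1 of day 3, 7 matrix genes were called higher, and with all 24 libraries in the fit, 8. The fall of Col6a2 was lost when any of the 4 libraries was left out.

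Markers of fibroblasts moved with this group. All 12 fibroblast markers had a positive late change in the silenced PMs and 3 rose (Dcn, Mfap5 and the surface protein gene Thy1, 1.34 ± 0.24), with a list median of 1.19, and 7 rose in siControl PMs. Without replicate 1 of day 3 none of the 3 was called. Their summed level was 2547.0 and 3499.0 CPM at day 3 and 5728.0 and 4429.0 CPM at day 6, most of it from the collagen genes Col1a1, Col1a2 and Col3a1, none of which was called in the silenced PMs. None of the 12 was at 0 in these libraries. Pdgfra, a defining receptor of these cells, was at 1.63 and 1.97 CPM and then 3.27 and 2.43 CPM, and was not called. The part of fibroblasts in the rise of the matrix genes was not tested.

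Matrix proteases and their inhibitors gave 4 rises in 29, and 2 without replicate 1 of day 3. The siControl PMs gave 5 rises and no fall on this list, with a median of 0.65 against 0.53 in the silenced PMs. Timp1, a metalloprotease inhibitor gene, went from 102 and 128 CPM to 299 and 384 CPM (1.57 ± 0.20, edgeR adjusted p = 0.00305). The collagen-cleaving cathepsin Ctsk rose by 1.52 ± 0.15 with near-identical replicates, Mmp19 by 1.37 ± 0.25 and Mmp2 by 1.02 ± 0.15. Timp1 overlaps Syn1, and Mmp19 overlaps Tmem198b, on the opposite strand.

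Of 46 tested genes of the transforming growth factor beta, activin and bone morphogenetic protein family 7 rose and 1, the ligand gene Mstn, fell, with a list median of 0.53. The siControl PMs gave 3 rises and 1 fall, with a median of 0.43. Ltbp2, a microfibril protein related to the binders of latent transforming growth factor beta, was at 17.6 and 12 CPM at day 3 and 195 and 79.9 CPM at day 6 (3.22 ± 0.54, edgeR adjusted p = 0.00935). Fst, which encodes follistatin, the antagonist of activins and myostatin, was at 16.9 and 35 CPM and then 84.3 and 168 CPM (2.28 ± 0.50). Replicates of a day lay well apart in both genes, and the 2 days did not overlap, which for Ltbp2 was a condition for naming it.

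Fstl1 and Fstl3, follistatin-like genes, rose by 1.09 ± 0.14 and 1.06 ± 0.19, and Smad7, the inhibitory Smad induced by the pathway, by 1.03 ± 0.16. The ligand Bmp6 rose from 0.473 and 0.546 CPM to 2.06 and 2.37 CPM (2.12 ± 0.33) at a low level, and overlaps the abundant gene Txndc5 on the opposite strand. Mstn (chromosome 1, 53118507 to 53124923, plus strand) fell from 51.4 and 28 CPM to 11.6 and 7.89 CPM, a change of -2.02 ± 0.29 (edgeR, adjusted p = 0.00495), and in siControl PMs from 21.7 and 15.7 CPM to 6.86 and 5.02 CPM. Both silenced libraries were above both control libraries at each day. Without replicate 1 of day 3, 1 member was called higher, and the fall of Mstn was called under every alternative.

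Secreted growth factors and cytokines also rose. Of 29 growth factor genes 4 were called, all higher, and without replicate 1 of day 3 it was 2. The siControl PMs also gave 4 rises and no fall on this list, with a median of 0.36 against 0.40 in the silenced PMs. Hbegf, an epidermal growth factor receptor ligand gene, went from 23 and 22.3 CPM to 84.2 and 77 CPM (1.83 ± 0.13, edgeR adjusted p = 0.000573), and Ereg, the gene of another ligand of that receptor family, from 2.57 and 1.45 CPM to 10.7 and 9.7 CPM (2.34 ± 0.33). Fgf2 rose by 2.29 ± 0.46 from under 1 CPM, and the neurotrophin gene Bdnf by 1.34 ± 0.24. Fgf2 overlaps Nudt6 on the opposite strand, and the reads of the pair cannot be told apart.

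Of 32 chemokine, cytokine and complement genes, 5 rose and none fell, with a list median of 0.91, against 9 and none in siControl PMs with a median of 1.42. Ptgs2, the inducible cyclooxygenase gene, was at 23.1 and 10.8 CPM at day 3 and 139 and 69.6 CPM at day 6 (2.62 ± 0.56, edgeR adjusted p = 0.0235). Lif, the gene of leukaemia inhibitory factor, a cytokine acting on muscle precursors, was at 4.49 and 5.5 CPM and then 36.7 and 23.4 CPM (2.59 ± 0.38). The decoy receptor gene Tnfrsf11b (osteoprotegerin) rose by 2.00 ± 0.33 and the macrophage growth factor gene Csf1 by 1.17 ± 0.26. Cxcl14 was counted 2 and 3 times at day 3 and 25 and 20 times at day 6. Without replicate 1 of day 3 none of the 5 was called, with edgeR, and DESeq2 on all libraries called 8 members higher. Among 6 tested macrophage markers none rose, Mrc1 fell (-1.28 ± 0.26), and Ptprc and C1qa were at 0 in all 4 libraries.

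Immediate early genes, which respond within minutes to growth and stress signals, gave 5 rises in 27 and no fall, with a list median of 0.53. The siControl PMs gave 4 rises and no fall, with a median of 0.74. Ier3 went from 9 and 8.73 CPM to 27.8 and 35.7 CPM (1.84 ± 0.20, edgeR adjusted p = 0.00155), and the AP-1 subunit gene Junb from 43.8 and 79.2 CPM to 135 and 203 CPM (1.46 ± 0.32). Klf4, Atf3 and Fos rose by 1.30 ± 0.33, 1.21 ± 0.31 and 1.11 ± 0.21. Only Ier3 among them was called in every alternative, and 1 member was called without replicate 1 of day 3 and 1 without replicate 2 of day 6.

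Genes known as targets of Yap and Tead gave 3 rises in 24, and 1 without replicate 2 of day 3. The siControl PMs gave 2 rises and no fall on this list, with a median of 0.33 against 0.19 in the silenced PMs. Over all tested genes, 1.84% rose in the silenced PMs. Ctgf, which encodes a matricellular growth factor, was at 148 and 88.4 CPM at day 3 and 471 and 359 CPM at day 6 (1.81 ± 0.33, edgeR adjusted p = 0.0125). Its late change in siControl PMs was 1.42, also called. Ankrd1, a stretch-responsive gene, was at 267 and 259.8 CPM and then 492 and 743 CPM (1.23 ± 0.23), and the kinase gene Nuak2 rose by 1.14 ± 0.16. At day 6 the Ctgf and Ankrd1 levels of the silenced PMs overlapped with those of siControl PMs, 451 and 348 CPM and 425 and 656 CPM. Ccnd1, the cyclin D1 gene, measured 185 ± 21.5 CPM (mean ± SD, n = 2) and then 149 and 104 CPM and was not called (-0.55 ± 0.27).

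Axon guidance and neuronal genes gave 5 rises in 40, and none without replicate 1 of day 3. The siControl PMs gave 5 rises and 1 fall on this list, with a median of 0.31 against 0.12 in the silenced PMs. Over all tested genes, 1.84% rose in the silenced PMs. Slit3 and Slit2, secreted guidance cues, rose by 1.62 ± 0.31 and 1.39 ± 0.23, and Sema3f, another cue, went from 2.49 and 4.03 CPM to 9.12 and 9.35 CPM. Mapt, the tau gene, went from 6.48 and 9.3 CPM to 22 and 26.2 CPM (1.61 ± 0.25), and its late change in siControl PMs was 2.73, also called. Cntn2 was counted once in each day 3 library and 14 times in each day 6 library. In the Wnt list of 43 genes, 1 rose (Dkk2, a secreted modulator, 2.45 ± 0.49) and 2 fell. The siControl PMs gave 3 rises and 1 fall on this list, with a median of 0.16 against 0.22 in the silenced PMs. The rise of Dkk2 was called in 8 of 11 alternatives. In the silenced PMs Sfrp2, a secreted antagonist gene, went from 1.69 and 1.83 CPM to 0.275 and 0.178 CPM (-2.93 ± 0.41). Its fall was called in 10 of 11 alternatives, but not with all 24 libraries in the fit. Tcf7l1, the gene of a repressive T-cell factor, went from 41.4 and 41.1 CPM to 18 and 14.7 CPM (-1.34 ± 0.11, edgeR adjusted p = 0.000636), with the 2 day 3 libraries nearly equal.

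Of 23 tested cholesterol synthesis genes 5 fell and none rose, 1 had a positive change, and the list median was -0.67. In siControl PMs none was called, but 0 of the 23 had a positive change and the median was -0.53. At an unadjusted p under 0.05 (edgeR) there were 21 members in the silenced PMs and 20 in siControl PMs. Lss and Nsdhl changed by -0.87 and -0.95 in siControl PMs. The difference between the arms was called for none of the list. In the silenced PMs the called falls were as follows. Lss, the lanosterol synthase gene, went from 53.1 and 60.8 CPM to 26.4 and 22.2 CPM (-1.23 ± 0.13, edgeR adjusted p = 0.00134). The sterol transfer protein gene Stard4 fell by 1.11, the reductase gene Tm7sf2 by 1.09 and Nsdhl by 1.01 on the log2 scale. With 1 library left out 2 to 4 members were called lower, the fewest without replicate 2 of day 3, and with all 24 libraries in the fit none was called.

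Of 70 tested cell cycle genes 6 fell and none rose, and 3 had a positive change, with a list median of -0.65. The 6 were Mcm10 (DNA replication), Foxm1 (a transcription factor of mitotic genes), Cdc20 (an activator of the anaphase-promoting complex), Uhrf1 (maintenance of DNA methylation), Ccna2 (cyclin A2) and Kif2c (a mitotic kinesin), at -1.20 to -1.02. Foxm1, for example, was at 16.2 and 14.2 CPM and then 9.15 and 5.28 CPM (edgeR, adjusted p = 0.0463), and the 2 libraries of day 6 lay further apart than those of day 3. None of the 6 calls was left without replicate 1 of day 3, without replicate 2 of day 3, or without replicate 2 of day 6, while 14 members were called lower without replicate 1 of day 6. In siControl PMs 2 members fell and the median was -0.51. Of 20 cell cycle inhibitor and quiescence genes none was called by edgeR and 1 by DESeq2, with 10 at an unadjusted p under 0.05, and the most abundant, Cdkn1a and Ccng1, changed by 0.36 ± 0.14 and -0.24 ± 0.23.

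Among energy metabolism genes, 6.06% of the glycolysis and energy buffer list and 6.67% of the fatty acid oxidation list were called. Over all tested genes 1.84% were called higher and 1.13% lower. None of 49 respiratory chain and Krebs cycle genes was called (edgeR, and none with DESeq2), with 27 at an unadjusted p under 0.05, although only 5 had a positive change and the list median was -0.30. The 2 most abundant, Atp5b and Atp5a1, subunits of the mitochondrial ATP synthase, went from 3071 and 2632 CPM to 2198 and 2342 CPM and from 1662 and 1457 CPM to 1163 and 1247 CPM (-0.33 ± 0.12 and -0.37 ± 0.11). In siControl PMs none of these 49 genes was called, and 37 had an unadjusted p under 0.05 (edgeR). There 4 had a positive change and the list median was -0.41. The siControl PMs also gave 1 fall among glycolysis genes, and 2 rises and 2 falls among fatty acid oxidation genes. The medians of these 2 lists were -0.26 and -0.16 in the silenced PMs and -0.22 and -0.25 in siControl PMs. In the list of 33 glycolysis and energy buffer genes, 2 fell in the silenced PMs. Ckmt2, the sarcomeric mitochondrial creatine kinase gene, went from 78.1 and 72.9 CPM to 35.9 and 30.5 CPM (-1.18 ± 0.26), while Ckmt1 was counted 5 and 7 times at day 3 and in neither library of day 6, which is at least 3.09-fold lower against a floor of 3 counts over the group. Neither fall was called without replicate 1 of day 3 or without replicate 2 of day 6. Of 30 genes of fatty acid oxidation and its regulators, Mb rose and the thiolase gene Acaa2 fell (-1.20 ± 0.20), the latter not without replicate 1 of day 3.

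Of the remaining lists with a call, the insulin-like growth factor list had 17.6% of its members called and the satellite cell list 9.52%. The adipogenesis list had 6.9% and the atrophy and autophagy list 3.33%. Over all tested genes 1.84% were called higher and 1.13% lower. In the insulin-like growth factor list of 17, Igf2, the imprinted fetal growth factor gene, fell from 6844 and 5334 CPM to 3214 and 2862 CPM (-1.003 ± 0.19, edgeR adjusted p = 0.0142), just beyond the 2-fold threshold, and the binding protein genes Igfbp7 and Igfbp6 rose by 1.11 ± 0.12 and 1.04 ± 0.25. Among 21 satellite cell genes Cd34, a surface marker, rose (1.86 ± 0.45) and Myf5 fell. The adipogenesis list of 29 gave Klf4 and, in the other direction, the glycerol channel gene Aqp7 (-2.39 ± 0.48, at under 1 CPM). The atrophy and autophagy list of 30 gave 1 rise, the muscle ubiquitin ligase adaptor Fbxo40, from 8.07 and 7.33 CPM to 12.9 and 26.4 CPM (1.35 ± 0.29). Apart from that of Igfbp7, each of these calls was lost without replicate 1 of day 3 and also without replicate 2 of day 6.

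No call was made by edgeR among 24 Notch signalling genes, where the most abundant, Hes6 and Notch3, changed by -0.23 ± 0.31 and -1.04 ± 0.39, or among 44 interferon and antigen presentation genes, where B2m and H2-K1 changed by 0.80 ± 0.27 and 0.13 ± 0.10. In these lists 8 and 5 members had an unadjusted p under 0.05, and DESeq2 called none and 2. Of the other marker lists, endothelial markers summed to 16.1 and 8.33 CPM at day 3 and 9.32 and 6.203 CPM at day 6, with 1 fall, Cldn5 (-2.61 ± 0.54), in 12. Smooth muscle and pericyte markers gave 1 rise in 11, Tagln (1.29 ± 0.24), with sums of 2486.0 and 2647.0 CPM and then 2888.0 and 3075.0 CPM. Macrophage markers summed to 9.25 to 14.25 CPM at day 3 and 6.32 to 6.44 CPM at day 6. Schwann cell and adipocyte markers gave no call in 9 and 3 tested, and their sums stayed between 247 and 312 CPM and between 2.23 and 3.27 CPM, with Cfd, Lep, Plin1 and Retn at 0. The part of these cell types in the gene groups above was not tested.

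**Figure D3:**
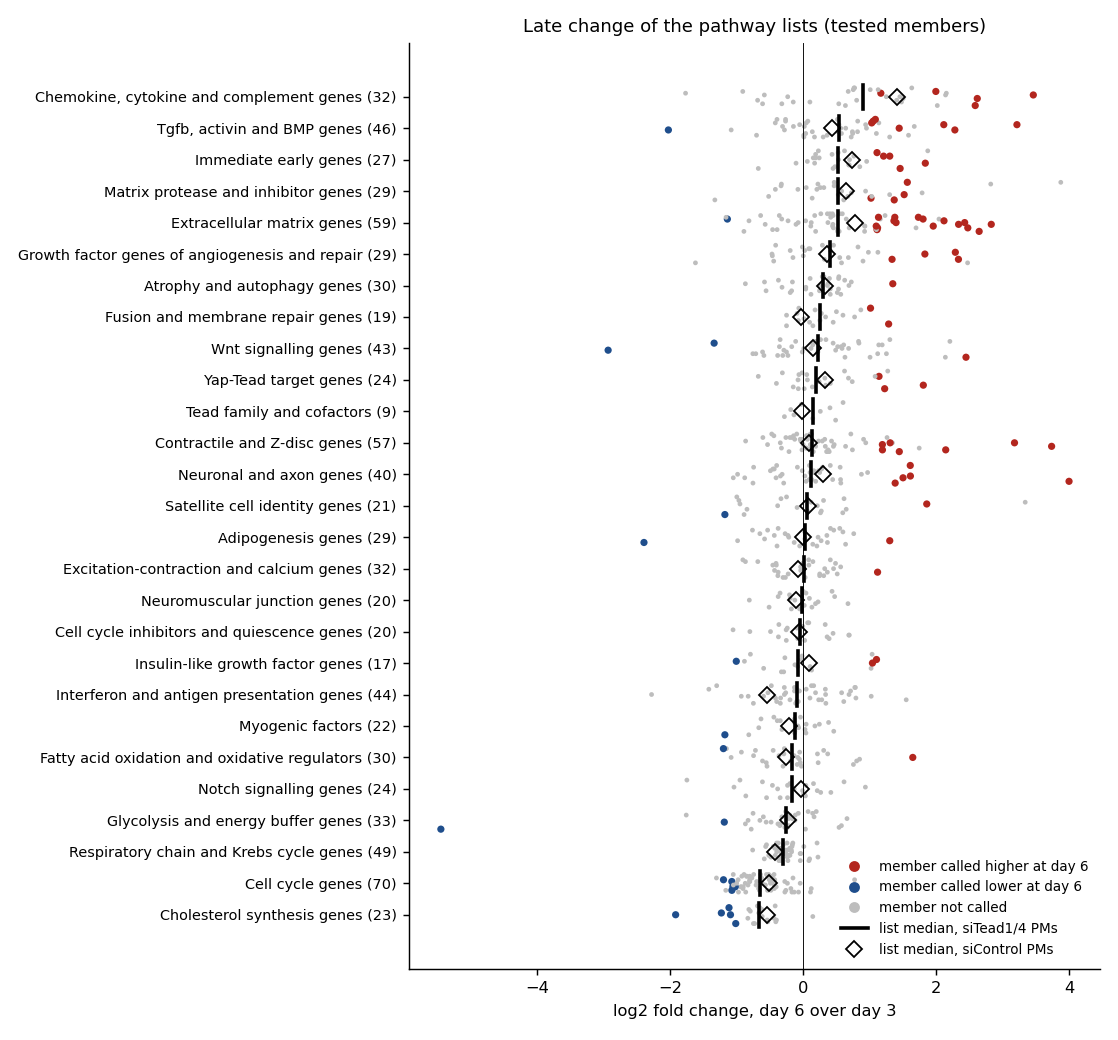
Late change (log2 fold change, day 6 over day 3) of the tested members of 27 gene lists in the silenced PMs, ordered by list median. Each point is a gene (red called higher, blue called lower, grey not called), the black bar is the list median, the diamond is the median of the same list in siControl PMs, and the number of tested members is in brackets. The chemokine list has the highest median and the matrix list the most red points, and the cholesterol and cell cycle lists have the lowest medians.

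The siControl PMs, which share no library with the silenced comparison, called 358 genes higher (2.22% of those tested) and 94 lower (0.582%) between the same days. Of the silenced rises, 158 were also called higher in siControl PMs, which is 53.2% of the 297 and 44.1% of the 358. Of the falls, 35 were called lower in both, 19.2% of the 182 and 37.2% of the 94. A single gene was called in opposite directions, Arhgap36, a gene named after its values were seen, at 1.44 and 1.11 CPM and then 0.192 and 0.356 CPM in silenced PMs and 1.35 and 1.6 CPM and then 3.26 and 4.68 CPM in siControl PMs (difference -3.64 ± 0.56, edgeR adjusted p = 0.18). The 297 rises had a median late change of 1.31 in siControl PMs and 286 of them were above 0 there, and the 182 falls had a median of -0.77 with 168 below 0. Over all tested genes the siControl median was -0.0125, with 48.4% above 0.

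The test of the difference between the 2 late changes called no gene in either direction (edgeR, 0.0% of 16144 tested). At an unadjusted p under 0.05 it gave 333 genes with a higher and 400 with a lower late change in the silenced PMs, and DESeq2 called 6 and 19. With the replicate number added to the model as a block, edgeR called 2 and 1. In the main test the lowest adjusted p was 0.18 (edgeR), shared by Myh1 and Cited1 among the named genes. Cited1 fell in the silenced PMs and was not called in siControl PMs, where it stood at 2.43 and 2.91 CPM and 2.4 and 2.4 CPM. The difference was -1.83 ± 0.29 (edgeR, adjusted p = 0.18). Sh2d3c fell in both arms, by 2.63 and 1.09, with a difference of -1.54 ± 0.31 (edgeR, adjusted p = 0.41). The median standard error of the difference was 0.26 on the log2 scale, which limits what 2 libraries a group can resolve. A missed threshold does not show that the arms changed alike.

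**Figure D4:**
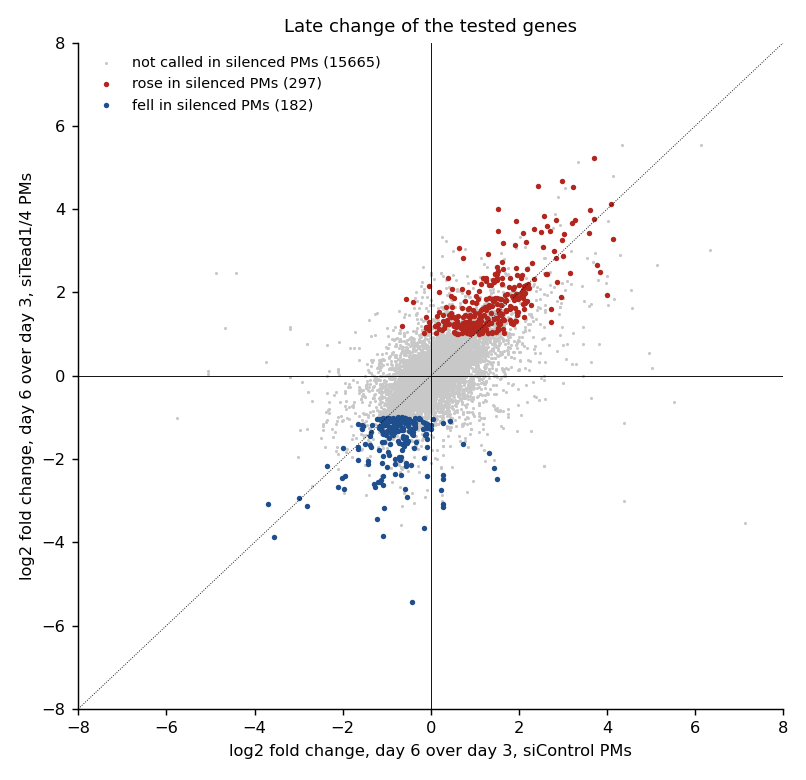
Late change of the 16144 tested genes in siTead1/4 PMs (vertical) against siControl PMs (horizontal), both as log2 fold change of day 6 over day 3. Red points are the 297 genes called higher and blue points the 182 called lower in the silenced PMs, and the dotted line marks equal change. Most coloured points lie where both axes have the same sign.

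The late calls were also set beside the early change of siControl PMs, day 3 against day 0, which uses none of the same libraries and called 2821 genes higher (17.5%) and 2398 lower (14.9%). Of the 297 late rises in the silenced PMs, 164 (55.2%) were genes induced early in siControl PMs, 17 (5.72%) were repressed there and 116 (39.1%) were not called. Of the 182 late falls, 69 (37.9%) were early repressed, 51 (28.0%) early induced and 62 (34.1%) not called. Seen from the other side, 5.81% of early induced genes rose late in the silenced PMs and 1.81% fell, while 0.709% of early repressed genes rose and 2.88% fell. Among the named genes, Myl2, Fhl1, Csrp3, Mb and Myh1 were early induced and rose late, whereas Mcm10, Foxm1, Cdc20 and Myf5 were early repressed and fell late. Fmo1, Tmem233, Galnt6, Igf2 and Ckmt2 were induced early in the controls and fell late in the silenced PMs.

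**Figure D5:**
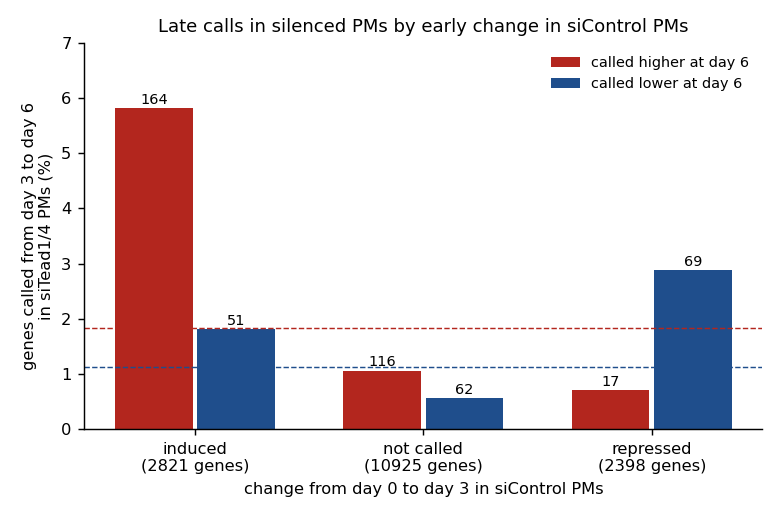
Share of genes called higher (red) or lower (blue) between day 3 and day 6 in the silenced PMs, among genes induced, not called or repressed between day 0 and day 3 in siControl PMs (percent, axis from 0, number of genes above each bar). Dashed lines give the shares over all tested genes, 1.84% and 1.13%. The red bar is tallest for early induced genes and the blue bar for early repressed genes.

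The silenced C2C12 cells of the same days were compared in a fit of all 24 libraries, with 16926 genes tested. The late change differed between siTead1/4 PMs and siTead1/4 C2C12 cells for 28 genes in the positive direction (0.165%) and 31 in the negative (0.183%). The 297 rises of PMs had a median late change of 0.14 in C2C12 cells, with 177 above 0, and the 182 falls a median of 0.18, with 67 below 0. Over all genes tested in PMs, 47.4% were above 0 in C2C12 cells, with a median of -0.0088. Anxa8, which rose in PMs, measured 683 and 762 CPM at day 3 and 632 and 676 CPM at day 6 in the silenced C2C12 cells, far above its PM level throughout, and the difference of the late changes was 4.69 ± 0.58 (edgeR, adjusted p = 0.00367). Sema6b measured 0.476 and 0.44 CPM and then 1.04 and 1.11 CPM there, with a difference of -3.32 ± 0.44 (edgeR, adjusted p = 0.00605). Cell cycle genes had a list median of -0.65 in PMs and 1.17 in C2C12 cells, where none was called by edgeR and 48 members had an unadjusted p under 0.05. The counts of differing genes moved between 0 and 376 in the positive and between 1 and 309 in the negative direction when 1 library was left out: the highest values came without replicate 1 of C2C12 day 3 (376 and 168) and of C2C12 day 6 (92 and 309), and the lowest without replicate 1 of PM day 3 (0 and 2) and replicate 2 of PM day 6 (1 and 1). With the 8 libraries alone edgeR made no call. The 2 cell types also differ in strain and culture, and these cannot be told apart.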

How the data were processed

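Polyadenylated RNA was sequenced from 24 libraries, of which the 12 of PMs entered the main model. The authors aligned reads to mm9 with TopHat2 2.0.10 and Bowtie2 2.1.0 after CASAVA 1.8.2, counted them per gene with HTSeq 0.6.1 and normalised with DESeq2 1.8.1, per the submitters' processing notes. The raw read counts deposited by the authors were used as they stand, without strand, and the deposited normalised columns were not. A further 36 columns of per-sample values belonged to no sample described here and were not used. Gene length and mm9 start and end positions came from the deposited table, and the strand from GENCODE vM1 (also mm9), matched by identifier.

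Counts were tested with edgeR 4.0.16 (R 4.3.3), using TMM factors, filterByExpr, a quasi-likelihood test with the 6 groups as means, and Benjamini-Hochberg adjustment over the 16144 tested genes of 28109. Calls required an adjusted p below 0.05 together with a log2 fold change above 1 in size. Levels are CPM with TMM factors. PMs and C2C12 cells were compared in 1 model of all 24 libraries (16926 genes). DESeq2 1.42.0, RLE factors, no filter, a minimum mean of 1 CPM, a replicate block, each library left out, and fits on more or fewer libraries were alternatives, and the model fits were tested on simulated data. With 1 library left out, the lone sample of a group is assumed to vary like the other groups. Genes were named by rule: the Tead genes and coactivators, the 12 largest rises and falls with a mean of at least 5 CPM and groups that did not overlap, the 4 largest called members of each list or the 2 most abundant where none was called, the 3 largest differences from C2C12 cells in each direction, and 8 genes the study followed. A few named genes are not reported here. The groups, lists and rules were chosen with earlier results of these data known. The labels call the replicates biological, but nothing says that they came from separate animals, so p-values measure the spread between these libraries, which may be partly technical.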

Additional observations from a re-analysis of the deposited data

Results flagged for a closer look

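The late change of 6 genes named by rule differed between siTead1/4 PMs and siTead1/4 C2C12 cells (edgeR, difference of the log2 fold changes in the model of 24 libraries). Ptgs2, the inducible cyclooxygenase gene, rose in PMs and stood at 93.3 and 322 CPM at day 3 and 20.8 and 49.3 CPM at day 6 in C2C12 cells, a difference of 5.19 (edgeR, adjusted p = 0.0384). For Anxa8, which stayed at a high level in C2C12 cells, the difference was 4.69 (edgeR, adjusted p = 0.00367). Meox1, a homeobox gene of the somite, was at 2.96 and 3.34 CPM and then 13.8 and 7.92 CPM in PMs and at 0.582 and 1.53 CPM and then 0.432 and 0.244 CPM in C2C12 cells, a difference of 3.46 (edgeR, adjusted p = 0.0388).

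In the other direction, Cacna1h, a calcium channel gene, was at 90.4 and 70.7 CPM and then 36.2 and 17.4 CPM in PMs. In C2C12 cells it was at 0.0529 and 0.162 CPM and then 0.634 and 0.665 CPM, at day 3 close to the lower end of detection. The difference was -4.11 (edgeR, adjusted p = 0.0388). Gja4, a connexin gene, was at 8.05 and 9.2 CPM and then 4.01 and 3.8 CPM in PMs and at 0.0265 and 0.0232 CPM and then 0.173 and 0.155 CPM in C2C12 cells, close to the lower end of detection, with a difference of -3.72 (edgeR, adjusted p = 0.0161). Sema6b, the semaphorin gene that fell in PMs, differed by -3.32 (edgeR, adjusted p = 0.00605). None of the 6 was called in C2C12 cells alone. When the model held the 8 compared libraries alone, none of the 6 differences was called.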

How the results depend on the processing

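The direction of the late change in silenced PMs was the same under all 11 alternatives for the 81 named genes that were called. Its counts (297 higher and 182 lower) were 529 and 304 with no filter on low counts, 143 and 70 with all 24 libraries in the fit, 173 and 84 with only the libraries of the contrast, and 52 to 292 and 46 to 192 with 1 library left out. For the difference from siControl PMs, where none was called, DESeq2 called 6 and 19 and the fit without a filter 21 and 25. The late change of siControl PMs (358 and 94) gave 544 and 165 with no filter, 132 and 32 with 24 libraries, 124 and 24 with the contrast alone, and 107 to 250 and 36 to 97 with 1 library left out. The difference from C2C12 cells (28 and 31) gave 191 and 195 with DESeq2, 438 and 473 with no filter, 0 and 0 with the 8 libraries alone, and 0 to 376 and 1 to 309 with 1 library left out. Fits without a filter tested more genes and fits on fewer libraries had fewer samples, and otherwise the cause was not tested. The counts of the early change in siControl PMs stayed within 1.5 times throughout. With the replicate block, the counts were 549 and 299 for silenced PMs, 586 and 146 for siControl PMs, 2 and 1 for the difference between the arms, and 80 and 81 for the difference from C2C12 cells. The deviations of same-numbered PM libraries correlated across genes with r of 0.0695 to 0.539, and 0.337 between days 3 and 6 of the silenced PMs, but the labels name no shared animal or day, so the numbers were not taken to pair the samples. The 4 libraries held 35069611 to 51110723 counts each, and how depth and the 2 libraries a group limit the number of calls was not tested.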

Other observations

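Creatine synthesis genes, which are on none of the lists and are named after their values were seen, fell late in the silenced PMs. Gatm, the first enzyme of the pathway, was at 289 and 242 CPM at day 3 and 98.5 and 129.9 CPM at day 6 (-1.22 ± 0.15, edgeR adjusted p = 0.00269), and Gamt, which completes it, was at 199.8 and 208 CPM and then 79.8 and 93.4 CPM (-1.24 ± 0.12, edgeR adjusted p = 0.00119). Both pairs of days were well separated, and both calls were made in every alternative. In siControl PMs the late changes were -1.54 ± 0.15 and -0.95 ± 0.12. Slc6a8, the creatine transporter gene, and Ckm, the muscle creatine kinase gene, were not called (-0.06 ± 0.13 and -0.83 ± 0.29).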
